A study of Mus with 3 samples.

Results

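Natural killer (NK) cells, the cytotoxic innate lymphocytes of the lung, made up 1234 of 14441 kept cells in a single-cell RNA-seq study of mouse allergic airway disease. DJ-1 is the redox-sensitive protein encoded by Park7. The DJ-1 KO OVA library came from DJ-1 KO mice challenged with ovalbumin (OVA), the WT OVA library from wild-type mice challenged in the same way, and the WT PBS library from wild-type mice given PBS. All mice were females 6 to 12 weeks old, and each library pooled total lung cells of 3 mice, so that there was 1 library per group and no DJ-1 KO mice without OVA. The title of the WT PBS library also names an OVA challenge, whereas its treatment label says PBS. With no replicates, the comparisons below are between libraries. They carry no test, and their 95% intervals cover counting error only.

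NK cells were chosen by their own transcripts. A kept cell had at least 200 genes and at most 20% mitochondrial unique molecular identifiers (UMIs, each 1 counted RNA molecule). An NK cell had at least 2 UMIs summed over Ncr1, Klrb1c, Klre1 and Eomes and at least 1 UMI of Gzma or Prf1. It also had 0 UMIs of the T cell receptor genes Cd3d, Cd3e and Cd3g, of the B cell gene Cd79a and of Il1rl1, the interleukin-33 receptor of type 2 innate lymphoid cells (ILC2). These 11 genes are described here but support nothing. The rule left 247 NK cells of 4441 kept cells in DJ-1 KO OVA. It left 542 of 6092 for WT OVA, and 445 of 3908 for WT PBS.

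NK cells kill stressed, infected or transformed cells without prior sensitisation, by releasing perforin and granzymes from granules. They weigh signals from activating receptors such as NKG2D against inhibitory receptors of the Ly49 and NKG2 families that bind class I major histocompatibility molecules. They also release interferon-gamma and chemokines, and in mice they mature from CD27-bearing to CD11b-bearing cells that circulate through the lung's vessels.

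NK cells were a smaller share of kept cells in DJ-1 KO OVA than in the other libraries. They were 5.56% in DJ-1 KO OVA (exact binomial interval 4.91 to 6.28), 8.90% in WT OVA (8.19 to 9.64) and 11.4% in WT PBS (10.4 to 12.4). The gap between WT OVA and WT PBS was not there at equal depth: with every cell thinned to 1000 UMIs the shares were 5.53%, 6.97% and 6.97%. The total of DJ-1 KO OVA held 906 cells with a UMI of the thymocyte recombination genes Rag1 or Dntt, against 18 in WT OVA and 45 in WT PBS. Without them the full-depth share in DJ-1 KO OVA was 6.93%, and the thinned shares were 6.29%, 6.99% and 7.05%.

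Depth differed between the libraries. Total UMIs were 17339386 in DJ-1 KO OVA, 24438516 in WT OVA and 26548669 in WT PBS, and NK cells had a median of 1603, 1846.5 and 4134 UMIs in that order of libraries. UMIs summed over NK cells were 511615 in DJ-1 KO OVA, 1255726 in WT OVA and 2248563 in WT PBS, and levels below are counts per 1000000 UMIs of these sums (CPM). WT PBS and DJ-1 KO OVA shared 372 cell barcodes, and the smaller cell of each pair was left out. The NK cells still holding any shared barcode were 4 in DJ-1 KO OVA, 2 in WT OVA and 2 in WT PBS, with 13.4%, 0.282% and 2.62% of their library's NK UMIs. RNA of other cells was present in every class. At 1000 UMIs the club cell gene Scgb1a1 was seen in 72.5% of NK cells from DJ-1 KO OVA, 63.5% from WT OVA and 36.5% from WT PBS, and in 83.2%, 68.9% and 42.9% of B cells.

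A few NK cells also held many transcripts of another cell type. Cells with at least 20 UMIs over any 1 of 6 marker lists (epithelium, red blood cells, myeloid cells, neutrophils, B cells, endothelium and stroma) are called mixed-profile cells here, a definition chosen after their values were seen. They numbered 7 in DJ-1 KO OVA, 28 in WT OVA and 22 in WT PBS, and held 17.1%, 18.7% and 10.9% of NK UMIs. Of all epithelial UMIs in NK cells they held 96% in DJ-1 KO OVA, 93.3% in WT OVA and 96.8% in WT PBS. Whether they are doublets was not tested. Where leaving them out ends a named result or moves it by more than 1.5 times, the value without them follows.

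**Figure D1:**
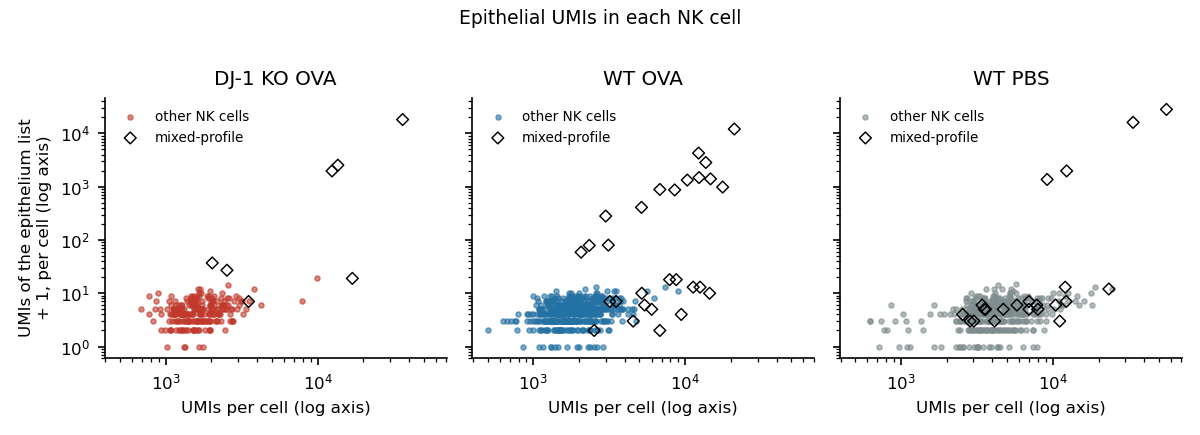
UMIs of the epithelium marker list plus 1 (y, log axis) against all UMIs (x, log axis) in each NK cell of DJ-1 KO OVA, WT OVA and WT PBS. Open diamonds are the 7, 28 and 22 mixed-profile cells; the top diamond of each panel holds 18177, 12076 and 28179 epithelial UMIs, against a median NK cell with 4, 4 and 3.

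NK genes that the rule did not use were compared between classes as a description. Their list was chosen with earlier results of these data known. A gene entered only with at least 150 NK UMIs over 3 libraries, which leaves out genes low in NK cells. The same filter held for all genes tested. Of 18 NK genes outside the rule with enough UMIs, 18 were at least 2-fold higher in NK cells than in all other kept cells in all 3 libraries, as were 10.3% of 4037 genes tested. Against B cells the count was 18 of 18, against ILC2 17 of 18, and against CD8 T cells, which share much of the killing machinery, 15 of 18, beside 11.2%, 6.64% and 6.04% of all genes. Nkg7, a granule membrane protein of killer lymphocytes, was 21.0 to 25.5 times as high in NK cells as in the other kept cells of the same library. Klrk1, which encodes the activating receptor NKG2D, was 22.0 to 30.7 times as high, and Tbx21, which encodes the transcription factor T-bet, 19.8 to 23.3 times. The 3 genes that missed 2-fold in some library against CD8 T cells were Txk, a Tec-family kinase at 1.93 to 3 times the CD8 T cell level, the surface protein Cd7 at 1.70 to 3.26 times and the receptor Slamf7 at 1.89 to 5.06 times.

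Klra8 (Ly49H, an activating receptor for a cytomegalovirus protein) and Klra4 (Ly49D, also activating) were 65.7 to 91.8 and 71.7 to 93.3 times as high in NK cells as in the other kept cells. All 6 Ly49 genes with enough UMIs were at least 2-fold higher in NK cells than in each of the 3 other classes. Irf8, a transcription factor better known from dendritic cells and B cells, was 25.3 to 34.6 times as high in NK cells as in the rest and 7.29 to 9.79 times as high as in B cells. Other genes ran the opposite way. Ltb, a lymphotoxin subunit, was in NK cells at 0.11 to 0.18 of its CD8 T cell level, and the early T cell factor Tcf7 at 0.19 to 0.26. Gata3, the ILC2 master regulator, was at 0.03 to 0.05 of its ILC2 level.

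**Figure D2:**
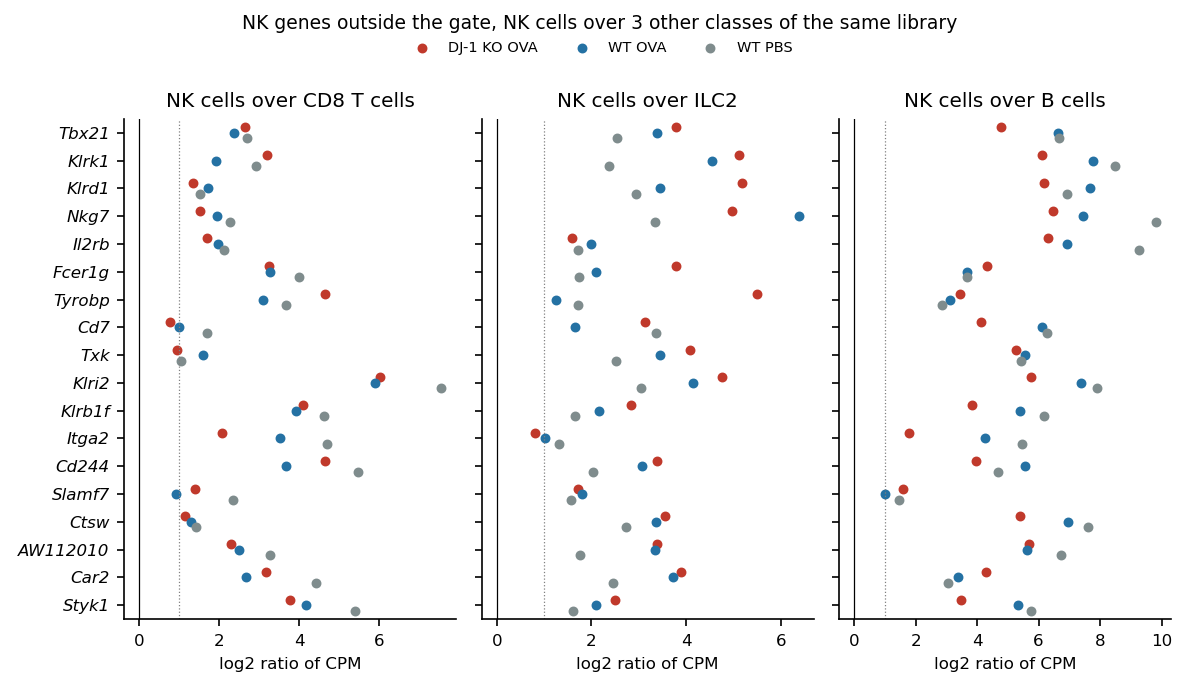
Log2 ratio of CPM in NK cells over CD8 T cells, ILC2 and B cells of the same library (x) for the 18 NK genes tested outside the rule (y), with 1 point per library and the dotted line at 2-fold. A class with fewer than 3 UMIs of a gene was set to 3, ILC2 of WT PBS were 27 cells, and Cd7, Slamf7 and Txk each have a point left of the line against CD8 T cells.

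A list of 20 genes of tissue-resident lymphocytes and the closely related type 1 innate lymphoid cells was mixed. Its sum was 4789 CPM in DJ-1 KO OVA, 4178 in WT OVA and 3739 in WT PBS NK cells, against 1842, 1417 and 1381 in B cells, and 3 of its genes were at 0 in each NK sum. Most of the sum came from Vps37b, Rgs1, Rgs2 and Il18r1, the interleukin-18 receptor chain that NK cells also carry, whereas the residency markers were low. Cxcr6, a tissue-retention chemokine receptor, had 3 UMIs in DJ-1 KO OVA, 0 in WT OVA and 1 in WT PBS NK cells, and Itga1, the CD49a integrin, 3, 4 and 0. Zfp683, the residency factor Hobit, had 0 UMIs in all 3, which allows up to 5.86 CPM in DJ-1 KO OVA, 2.39 in WT OVA and 1.33 in WT PBS. The type 2 cytokine genes Il4, Il5 and Il13, and Il22, also had 0 UMIs in NK cells of every library. Il7r, the interleukin-7 receptor, was seen in 2.12% of NK cells from DJ-1 KO OVA, 0.573% from WT OVA and 0.459% from WT PBS at 1000 UMIs, and in 0.935%, 1.22% and 2.07% of B cells.

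The edge of the rule is given as a description. NK cells with exactly 2 marker UMIs were 32 in DJ-1 KO OVA, 68 in WT OVA and 15 in WT PBS, and their Nkg7 levels were 1455, 1661 and 2527 CPM. Just outside, cells with 1 marker UMI and Gzma or Prf1 were 31, 46 and 10, with Nkg7 at 736, 1715 and 645 CPM. Cells with 2 or more marker UMIs but neither Gzma nor Prf1 were 20, 12 and 7, with Nkg7 at 1029, 457 and 997 CPM.

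Granule genes are given by level. The rule asked for a UMI of Gzma (granzyme A) or Prf1 (perforin), so that their presence was set by the choice of cells; Gzma had 6804 CPM in DJ-1 KO OVA, 6041 in WT OVA and 7853 in WT PBS. Gzmb, granzyme B, which the rule did not use, had 1114 CPM in DJ-1 KO OVA, 1259 in WT OVA and 1114 in WT PBS. At 1000 UMIs, Gzmb was seen in 57.2% of NK cells (50.6 to 63.6) from DJ-1 KO OVA, 62.2% (57.9 to 66.4) from WT OVA and 56.7% (51.9 to 61.4) from WT PBS, and in 0%, 0.487% and 0.319% of B cells. The median UMIs of these cells before thinning were 1619.5, 1887.5 and 4153.5 for NK cells and 1260, 1364 and 3040 for B cells. Before thinning the Gzmb shares were 69.2%, 77.7% and 85.6%, which is the order of their median depth. Prf1 had 137 CPM in DJ-1 KO OVA, 154 in WT OVA and 204 in WT PBS, and Fasl, a death ligand, 367, 293 and 279.7 CPM.

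The first comparison, WT OVA over WT PBS, asks what differed in NK cells after allergen challenge. By the 1.5-fold mark explained below, 19 immediate early genes, the chemokine gene Ccl4, Klf2 and Cx3cr1 were higher in WT OVA. Cd7, Bcl2 and 11 cell cycle genes were lower. No Ly49 gene passed the mark at full depth, but Klra3 was past it, lower, with cells thinned to 1000 UMIs. Among 6869 genes with at least 50 UMIs over both libraries, 4.51% were past 2-fold, 201 higher (2.93%) and 109 lower (1.59%) in WT OVA. Without mixed-profile cells 173 of 6338 (2.73%) were, 68 higher and 105 lower. With NK cells weighted alike the split was 149 higher and 131 lower. For list members the mark is 1.5-fold, which 10.3% of all genes passed upwards and 7.54% downwards, and the median gene had a log2 ratio of 0.04. Without mixed-profile cells 8.66% passed it upwards and 7.57% downwards.

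Of 36 immediate early genes with enough UMIs, 19 were at least 1.5-fold higher in WT OVA and 0 lower, with a median log2 ratio of 0.63. Without mixed-profile cells the count was 19 of 35 and the median 0.59. The same 36 genes had medians of 0.62 in CD8 T cells and 0.42 in B cells. Dusp1, a phosphatase that turns off MAP kinases, had 1066 CPM in WT OVA and 456 in WT PBS, a ratio of 2.34 (2.15 to 2.54). Junb, an AP-1 subunit, had 4913 CPM in WT OVA and 3138 in WT PBS (ratio 1.57, 1.51 to 1.62). Fos had 545 and 212 CPM in the same order, but 218 in WT OVA and 144 in WT PBS without mixed-profile cells, so that its ratio was 2.57 with them and 1.51 without.

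Of 12 cytokine and chemokine genes tested, 2 were at least 1.5-fold higher and 2 lower, beside 10.3% and 7.54% of all genes. Their median log2 ratio was -0.02. Without mixed-profile cells 3 of 11 were higher (Ccl4, Ccl3 and Flt3l) and 0 lower. Ccl4, a chemokine that draws T cells and monocytes, had 2003 CPM in WT OVA and 1038 in WT PBS, a ratio of 1.93 (1.82 to 2.04). Ccl3, a related chemokine, had 674 CPM in WT OVA and 456 in WT PBS (ratio 1.48, 1.35 to 1.62), just under the mark. At 1000 UMIs, Ccl4 was seen in 54.0% of WT OVA NK cells (49.6 to 58.3) and 42.4% of WT PBS NK cells (37.7 to 47.2), against 1.82% and 0.319% of B cells. Before thinning the shares were 66.2% and 67.2%. Tnf, tumour necrosis factor, had 45 UMIs in WT OVA and 20 in WT PBS, most of them in mixed-profile cells: without them its levels were 7.83 and 2.99 CPM, with an interval of the ratio from 0.796 to 9.15.

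Ccl5, a chemokine that draws T cells and eosinophils, was the most abundant chemokine gene of NK cells and was seen in nearly all of them, in 98.7% of WT OVA and 97.7% of WT PBS NK cells at 1000 UMIs. Its level was 8409 CPM in WT OVA and 12359.9 in WT PBS, a ratio of 0.68 (0.665 to 0.696) that lay just short of the mark, whereas its ratio in CD8 T cells was 0.919. Ifng, interferon-gamma, had 74.9 CPM in WT OVA and 86.7 in WT PBS, and the interval of its ratio, 0.668 to 1.11, spanned 1. After thinning its log2 ratio went from -0.21 to -0.85, past the mark and outside that interval. Xcl1, lymphotactin, which attracts cross-presenting dendritic cells, had 204 CPM in WT OVA and 257 in WT PBS (ratio 0.792, 0.681 to 0.919). Its log2 ratio of -0.34 was -0.04 after thinning.

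Receptor and adaptor genes showed small shifts. Of 21 activating receptors and adaptors, 2 were at least 1.5-fold higher (Cd69 and Zap70) and 1 lower (Tyrobp), with a median log2 ratio of 0.06. These counts stand beside 10.3% of all genes higher and 7.54% lower past the mark. Without mixed-profile cells 3 were higher and 0 lower, with Tyrobp at a log2 ratio of -0.58. Tyrobp, the adaptor DAP12 that signals for several activating receptors, had 1191 CPM in WT OVA and 1829.6 in WT PBS, a ratio of 0.651 (0.613 to 0.691). Fcer1g, the adaptor that signals for Ncr1 and CD16, had 1374 CPM in WT OVA and 1821 in WT PBS (ratio 0.755, 0.713 to 0.799). Of the 6 Ly49 genes tested, 0 of 6 passed 1.5-fold at full depth, and their log2 ratios ran between -0.24 and 0.19. With cells thinned to 1000 UMIs the log2 ratio of Klra3 went from -0.24 to -1.30, past the mark. That of Klra7 went from -0.18 to -0.40, and that of Klra8 from 0.14 to -0.08, both short of it. Klrc1, which encodes the inhibitory receptor NKG2A, had 335 CPM in WT OVA and 275 in WT PBS (ratio 1.22, 1.07 to 1.38).

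Genes of immature NK cells had a negative median in WT OVA over WT PBS: of 12 tested, 0 were higher and 3 were lower past 1.5-fold (Cd7, Ctla2b and Ltb), and the median log2 ratio was -0.43. Without mixed-profile cells 2 were lower (Cd7 and Ctla2b). The median was -0.39 without mixed-profile cells and -0.18 with cells thinned to 1000 UMIs, and the CD8 T cell median was -0.12. Cd7, an early NK surface protein, had 126 CPM in WT OVA and 223 in WT PBS, a ratio of 0.564 (0.468 to 0.675). It was seen in 10.1% of WT OVA (7.67 to 13.0) and 17.7% of WT PBS (14.2 to 21.6) NK cells at 1000 UMIs, in 19.4% and 45.4% before thinning, and in 0% and 0.159% of B cells at 1000 UMIs. Of 21 mature NK genes, 2 were higher (Cx3cr1 and Klf2) and 1 lower (Emp3), with a median of 0.18, and without mixed-profile cells S100a4 was lower too. Of all genes 10.3% were higher and 7.54% lower past the mark. For the 18 mature genes with enough UMIs in CD8 T cells, the median was 0.59 in CD8 T cells and 0.13 in NK cells. Klf2, a factor that keeps lymphocytes in circulation, had 1529.8 CPM in WT OVA and 872 in WT PBS (ratio 1.75, 1.65 to 1.87). Cx3cr1, the fractalkine receptor of mature NK cells, had 69.3 CPM in WT OVA and 36.9 in WT PBS (ratio 1.88, 1.37 to 2.57).

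Single cells were also placed between these states. At 1000 UMIs, UMIs of the mature genes Itgam, Klrg1, Zeb2, S1pr5, Cx3cr1, Prdm1, Cma1 and Ly6c2 only were held by 86 of 236 NK cells from DJ-1 KO OVA, 213 of 524 from WT OVA and 129 of 436 from WT PBS. Those with UMIs only of the immature genes Cd27, Ltb, Emb, Cd7, Xcl1, Kit, Thy1, Ctla2a and Ctla2b were 44, 102 and 145. Both sets were seen in 82, 151 and 130 cells, and neither in 24, 58 and 32. The summed UMIs of the sets ran against each other, with a Spearman correlation across cells of 1 library of -0.24, -0.32 and -0.39 in the same order of libraries. Cells share their library and, at a fixed total, UMIs of 1 set leave room for fewer of the other, so this is a description.

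Survival and signalling genes downstream of cytokines passed the mark in both directions, at shares near those of all genes. Bcl2, an anti-apoptotic protein that interleukin-15 maintains in NK cells, had 291 CPM in WT OVA and 475 in WT PBS, a ratio of 0.613 (0.542 to 0.690). Stat4, the transducer of interleukin-12, had 137 CPM in WT OVA and 219 in WT PBS (ratio 0.625, 0.522 to 0.745). Pim1, a kinase induced by STAT5, was higher, with 2237 CPM in WT OVA and 1419.6 in WT PBS (ratio 1.58, 1.5 to 1.66). Of 22 JAK-STAT genes tested, 2 were higher and 2 lower, beside 10.3% and 7.54% of all genes. Their median log2 ratio was 0.20, against 0.23 in CD8 T cells and 0.25 in B cells. Without mixed-profile cells 3 of 20 were higher and 2 lower, and the log2 ratio of Stat4 was -0.55. In CD8 T cells Bcl2 had a ratio of 0.452 and Pim1 of 1.72.

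Cell cycle genes are described by their sum, by gene and by cell. Their summed level was 4965 CPM in DJ-1 KO OVA, 3740.5 in WT OVA and 4799.5 in WT PBS NK cells, against 4386, 2500.6 and 2252 CPM in all other kept cells, and most of it came from Hmgb2 and H2afz, chromatin proteins that resting cells also make. Of 20 tested, 11 were at least 1.5-fold lower in WT OVA and 0 higher, with a median log2 ratio of -0.66, whereas the CD8 T cell median was 0.28. At 1000 UMIs, at least 2 UMIs over the division genes of the list (Mki67, Top2a, Birc5, Cdk1, Ccnb1, Ccnb2, Ccna2, Cdc20, Ube2c, Pclaf, Rrm2, Nusap1, Tk1 and Tyms) were held by 3 of 236 NK cells from DJ-1 KO OVA (1.27%, 0.263 to 3.67), 3 of 524 from WT OVA (0.573%, 0.118 to 1.66) and 13 of 436 from WT PBS (2.98%, 1.60 to 5.04). Mki67, the proliferation antigen Ki-67, had 7.17 CPM in WT OVA and 65.4 in WT PBS (ratio 0.11, 0.0492 to 0.214). Without mixed-profile cells it had 3.92 and 72.8 CPM, and the ratio was 0.0538 (0.0145 to 0.141). The top NK cell of WT PBS held 26.5% of the Mki67 UMIs in NK cells of that library. Top2a, the topoisomerase of dividing cells, rested on few cells. Its ratio of 0.32 became a log2 ratio of 0.12 after thinning and of -0.31 with NK cells weighted alike.

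In DJ-1 KO OVA over WT OVA, 4 of 14 cell cycle genes with enough UMIs were at least 1.5-fold higher (Top2a, Tuba1b, Tubb5 and Stmn1) and 0 lower, with a median log2 ratio of 0.33 beside 0.89 in CD8 T cells. Without mixed-profile cells 5 of 14 were higher and the median was 0.41. Mki67 had 25 UMIs in DJ-1 KO OVA, against 9 in WT OVA, or 48.9 and 7.17 CPM, a ratio of 6.82 (3.08 to 16.6), and 15.0 (5.2 to 59.5) without mixed-profile cells. Top2a had 108 CPM in DJ-1 KO OVA, against 31.9 in WT OVA (ratio 3.37, 2.21 to 5.21), but its log2 ratio was 0.46 with NK cells weighted alike and -0.54 after thinning. The shares of cells with at least 2 UMIs of the division genes, given above, had overlapping intervals in these 2 libraries.

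The second comparison, DJ-1 KO OVA over WT OVA, asks what differed in NK cells without DJ-1 under the same challenge. Park7 itself was lower, as were Xcl1, Ccl5 and Tyrobp, while Klrc1, Klra3, Klra4, Rab27a and Camk2b were higher. Granzyme genes differed little. Among 5033 genes with at least 50 UMIs over both libraries, 3.97% were past 2-fold, 83 higher (1.65%) and 117 lower (2.32%) in DJ-1 KO OVA. Without mixed-profile cells 111 of 4378 (2.54%) were, 46 higher and 65 lower. The 1.5-fold mark was passed by 8.34% of all genes upwards and 8.52% downwards, and the median log2 ratio of all genes was 0.06. Without mixed-profile cells these shares were 8.7% and 6.9%, and the median was 0.10.

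Park7 (chr4:150897133-150909921, GRCm38.p6) had 6 NK cell UMIs in DJ-1 KO OVA, 120 in WT OVA and 382 in WT PBS, which is 11.7, 95.6 and 169.9 CPM. The ratio of DJ-1 KO OVA to WT OVA was 0.123 (0.0442 to 0.275) in NK cells, 0.104 in CD8 T cells and 0.185 in B cells, in the direction the genotype label gives. Pink1, a mitochondrial kinase studied with DJ-1 in Parkinson disease, had 19.5 CPM in DJ-1 KO OVA, against 53.4 in WT OVA (ratio 0.366, 0.168 to 0.716). Its ratio was 0.292 in CD8 T cells and 0.93 in B cells.

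**Figure D3:**
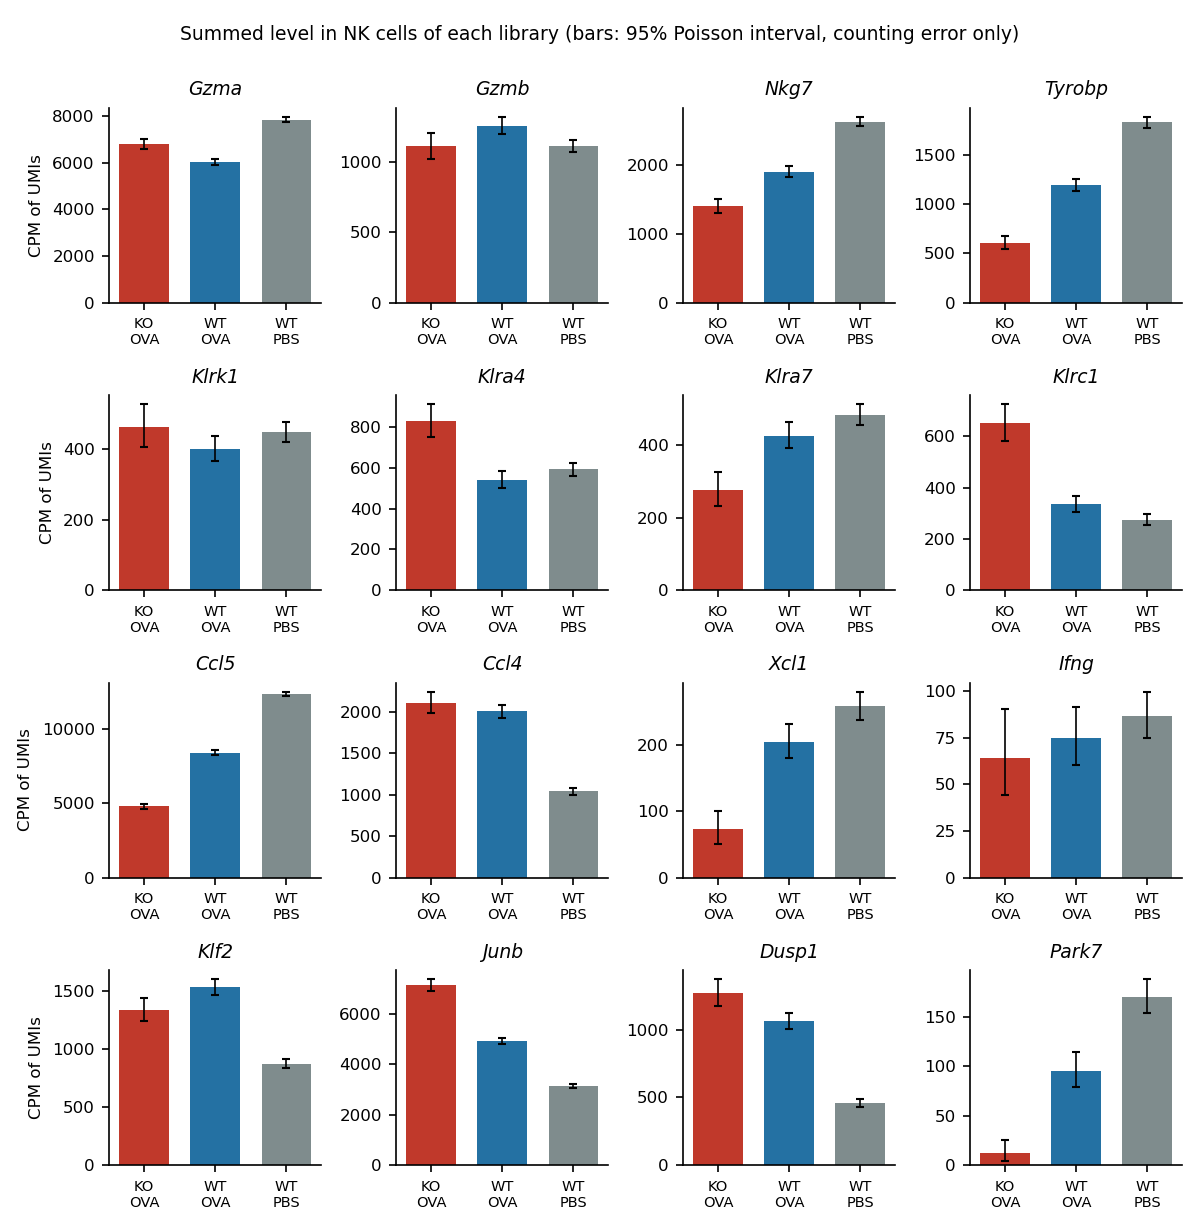
Summed level (CPM of UMIs, y) in NK cells of DJ-1 KO OVA, WT OVA and WT PBS for 16 genes, with exact 95% Poisson intervals that cover counting error only. Nkg7, Tyrobp, Ccl5 and Park7 are lowest in DJ-1 KO OVA and highest in WT PBS, Klrc1 and Junb run the opposite way, and Gzmb stays between 1114 and 1259 CPM.

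Chemokine genes separated. Xcl1 (chr1:164931644-164935522) had 37 UMIs in DJ-1 KO OVA, against 256 in WT OVA NK cells, or 72.3 and 204 CPM, a ratio of 0.355 (0.244 to 0.502). It was seen in 6.36% of DJ-1 KO OVA (3.60 to 10.3) and 13.4% of WT OVA (10.6 to 16.6) NK cells at 1000 UMIs, in 8.91% and 21.6% before thinning, and in 0% of B cells of both. Ccl5 had 4793 CPM in DJ-1 KO OVA, against 8409 in WT OVA, a ratio of 0.57 (0.545 to 0.596), close to its ratio of 0.541 in CD8 T cells. At 1000 UMIs nearly every cell still had a Ccl5 UMI, 97% (94.0 to 98.8) for DJ-1 KO OVA and 98.7% (97.3 to 99.5) for WT OVA. Ccl4 had 2109 CPM in DJ-1 KO OVA, against 2003 in WT OVA (ratio 1.05, 0.98 to 1.13), and Ccl3 745 and 674 CPM (1.11, 0.977 to 1.25). Ifng had 64.5 CPM in DJ-1 KO OVA, against 74.9 in WT OVA, with an interval of the ratio from 0.561 to 1.29. Of 11 cytokine and chemokine genes tested, 0 were higher and 2 lower past 1.5-fold (Xcl1 and Ccl5), beside 8.34% and 8.52% of all genes. Their median log2 ratio was -0.08, and without mixed-profile cells Flt3l was higher.

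Of 21 activating receptors and adaptors, 2 were at least 1.5-fold higher (Klra4 and Cd69) and 2 lower (Tyrobp and Fcer1g), with a median log2 ratio of 0.04. Of all genes 8.34% were higher and 8.52% lower past the mark, so these counts were near the shares of all genes. Tyrobp had 609.8 CPM in DJ-1 KO OVA, against 1191 in WT OVA, a ratio of 0.512 (0.452 to 0.579), and Fcer1g 868 and 1374 CPM (0.631, 0.568 to 0.701). NK cells held 7.24 to 10.8 times the Tyrobp level of B cells, in which the ratios of the 2 genes were 0.415 and 0.395; the part of free RNA in the NK cell values was not tested. Fcer1g did not stay past the mark: its log2 ratio of -0.66 was -0.57 without mixed-profile cells, -0.44 after thinning and -0.50 without both cells of shared barcodes. Nkg7 had 1409 CPM in DJ-1 KO OVA, against 1909.7 in WT OVA (ratio 0.738, 0.678 to 0.802). Ccl5, Nkg7, Tyrobp and Fcer1g thus stood lowest in DJ-1 KO OVA and highest in WT PBS, the order also of median UMIs per cell and of the ribosomal protein share of NK UMIs, which was 13.6%, 17.9% and 19.3%. The part of depth in these orders was not tested beyond thinning, after which the log2 ratios in this comparison were -0.76 for Ccl5, -0.92 for Tyrobp, -0.44 for Nkg7 and -0.44 for Fcer1g.

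Klrc1 (NKG2A; chr6:129666015-129682852) had 651 CPM in DJ-1 KO OVA, against 335 in WT OVA, a ratio of 1.94 (1.68 to 2.25), and Klrc2, its activating counterpart NKG2C, 645 and 482 CPM (1.34, 1.17 to 1.53). In CD8 T cells the Klrc1 ratio was 1.38. Klrd1, the CD94 partner of both, had 487 CPM in DJ-1 KO OVA, against 499 in WT OVA (0.976, 0.84 to 1.13). Klrk1 had 465 and 401 CPM in the same order (1.16, 0.989 to 1.35). Of these 4 genes Klrc1 alone was past 1.5-fold, and the interval of Klrd1 spanned 1.

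Ly49 receptors, whose genes lie side by side on chromosome 6 and which each NK cell expresses in its own combination, moved in both directions. Of 6 tested, 2 were at least 1.5-fold higher (Klra3 and Klra4) and 1 lower (Klra7), with a median log2 ratio of 0.10. Klra4 (chr6:130043730-130067301) had 829 CPM in DJ-1 KO OVA, against 539.9 in WT OVA, a ratio of 1.53 (1.36 to 1.74), and was seen in 43.2% (36.8 to 49.8) and 30.7% (26.8 to 34.9) of NK cells at 1000 UMIs. Before thinning its shares were 50.2% and 39.5%, and in B cells at 1000 UMIs 0% and 0.122%. With NK cells thinned its log2 ratio was 0.583, at the edge of the mark. Klra3 (Ly49C, inhibitory) had 199 CPM in DJ-1 KO OVA, against 117 in WT OVA (1.70, 1.31 to 2.21). Klra7 (Ly49G, inhibitory) had 278 CPM in DJ-1 KO OVA, against 427 in WT OVA (0.65, 0.537 to 0.784). Its log2 ratio of -0.62 was -0.15 with cells thinned to 1000 UMIs and -0.44 without both cells of shared barcodes, so it did not stay past the mark. Klra8 had 670.4 and 651 CPM (1.03, 0.906 to 1.17). These genes have near-identical copies, so that reads may have been split or shared between them.

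The intervals of the 3 libraries overlapped for the number of Ly49 genes per cell. At 1000 UMIs, no Ly49 gene was seen in 16.1% of NK cells (11.7 to 21.4) from DJ-1 KO OVA, 20.2% (16.9 to 23.9) from WT OVA and 16.5% (13.2 to 20.3) from WT PBS, and in 99.1%, 98.8% and 98.6% of B cells. A single gene was seen in 29.7%, 34.5% and 37.8% of NK cells, 2 genes in 34.7%, 30.9% and 29.1%, and 3 or more in 19.5%, 14.3% and 16.5%. Before thinning 3 or more were seen in 33.2%, 32.7% and 52.1%, so that WT PBS, the deepest library, had the highest share.

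**Figure D4:**
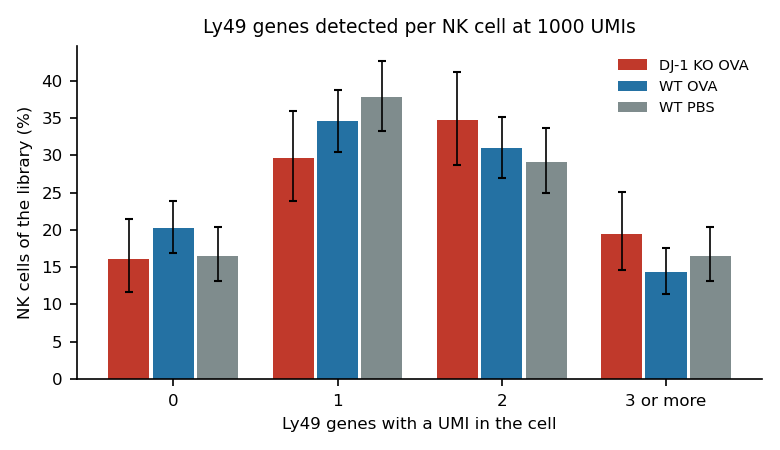
Percent of NK cells (y) with UMIs of 0, 1, 2 or 3 or more Ly49 genes (x) at 1000 UMIs per cell in DJ-1 KO OVA, WT OVA and WT PBS, with exact binomial 95% intervals. The intervals of the 3 libraries overlap in every class; 19.5%, 14.3% and 16.5% of cells carried 3 or more.

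Over all NK cells Rab27a was the 1 granule gene past the 1.5-fold mark in DJ-1 KO OVA. Of 14 tested, 1 was higher and 0 lower, beside 8.34% and 8.52% of all genes. The upward count was thus near the share of all genes. The median log2 ratio was 0.16, beside 0.06 for all genes. Without mixed-profile cells Stx11, a syntaxin of granule release, was higher too. Rab27a, a GTPase that docks lytic granules for release, had 135 CPM in DJ-1 KO OVA, against 66.9 in WT OVA, a ratio of 2.02 (1.44 to 2.81), against 1.03 in CD8 T cells and 1.24 in B cells. Gzmb had a ratio of 0.885 (0.803 to 0.974) and Fasl of 1.25 (1.05 to 1.5). The log2 ratio of Fasl, 0.33, was -0.05 after thinning. Srgn, the proteoglycan core of the granules, had 295 CPM in DJ-1 KO OVA, against 424 in WT OVA (0.695, 0.577 to 0.835). Its log2 ratio of -0.52 was -0.24 without mixed-profile cells.

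Regulators of residence and lineage were among the smaller differences. Cxcr4, a bone marrow and tissue homing receptor, had 1276 CPM in DJ-1 KO OVA, against 843 in WT OVA (ratio 1.51, 1.37 to 1.67), and Cd69, which retains cells in tissue, 125 and 82.0 CPM (1.53, 1.10 to 2.10). Both also had ratios above 1.4 in CD8 T cells, 1.56 for Cxcr4 and 2.24 for Cd69. Id2, the factor required for NK development, had 1757 CPM in DJ-1 KO OVA, against 1249 in WT OVA (1.41, 1.29 to 1.53), while its CD8 T cell ratio was 0.839. Gata3 had 97.7 and 60.5 CPM (1.61, 1.11 to 2.34). Tbx21 had 186 and 179 CPM (1.04, 0.807 to 1.32). Of 21 mature NK genes 0 were higher and 1 lower (Emp3), and of 12 immature genes 0 were higher and 2 lower (Xcl1 and Kit). Without mixed-profile cells no mature gene passed the mark, and of the immature genes 1 was higher (Bach2) and 3 lower (Xcl1, Kit and Cd27).

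**Figure D5:**
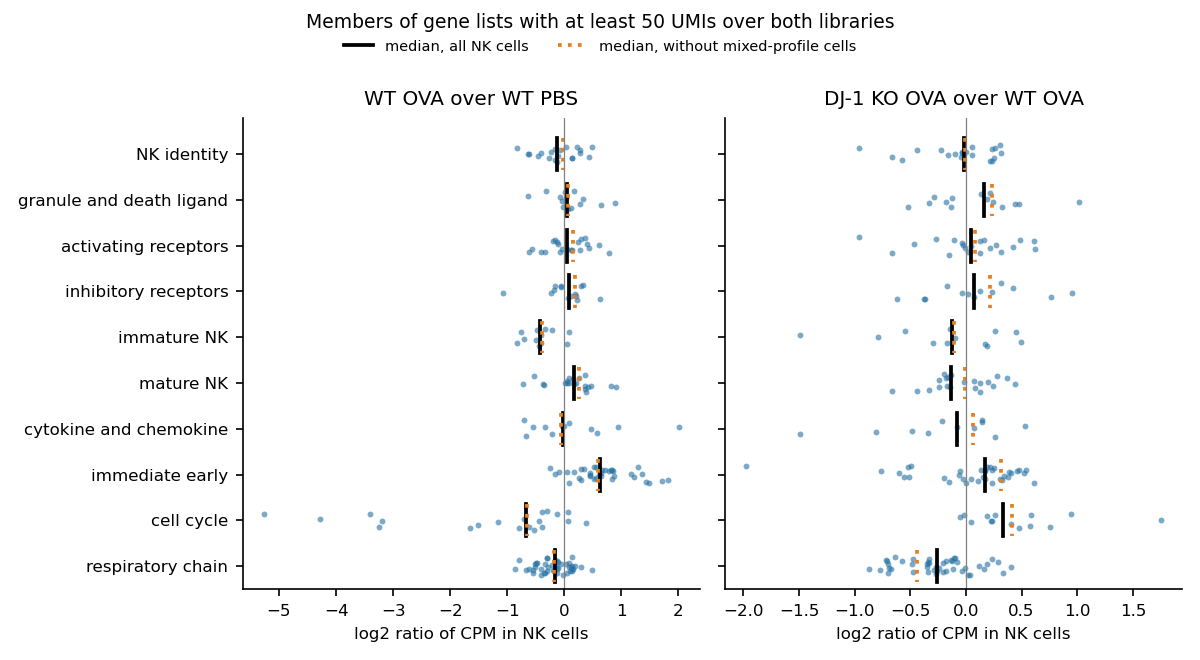
Log2 ratio of CPM in NK cells (x) for the members with at least 50 UMIs of 10 gene lists (y), WT OVA over WT PBS on the left and DJ-1 KO OVA over WT OVA on the right; black bars are list medians over all NK cells and dotted bars without mixed-profile cells. Immediate early genes lie to the right in WT OVA (median 0.63), cell cycle genes to the left (-0.66), and respiratory chain genes to the left in both comparisons (-0.26 in DJ-1 KO OVA over WT OVA and -0.17 in WT OVA over WT PBS).

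Nuclear genes of the respiratory chain, which makes ATP in mitochondria, had a negative median in both comparisons. In DJ-1 KO OVA over WT OVA, of 45 tested, 9 were at least 1.5-fold lower and 0 higher, with a median log2 ratio of -0.26, and without mixed-profile cells 11 were lower with a median of -0.44. In WT OVA over WT PBS 4 of the 45 were lower and 0 higher, with a median of -0.17, and without mixed-profile cells 6 were lower. Of all genes 8.52% were lower past the mark in DJ-1 KO OVA over WT OVA. In WT OVA over WT PBS the share was 7.54%, near that of the 45 genes. There the medians of the same genes were 0.09 in CD8 T cells and 0.05 in B cells. For DJ-1 KO OVA the medians of the same genes were -0.05 in CD8 T cells and -0.36 in B cells. Cox8a, a cytochrome oxidase subunit, had 452 CPM in DJ-1 KO OVA, against 772 in WT OVA (ratio 0.585, 0.504 to 0.675), and Uqcrc1, a complex III core protein, 50.8 and 93.2 CPM (0.545, 0.342 to 0.840). The 80 ribosomal protein genes had a median of -0.47, 29 of them past 1.5-fold lower, beside -0.35 in CD8 T cells and -0.38 in B cells, so ribosomal protein genes lay below 0 in all 3 classes. Of 24 NRF2 and thiol antioxidant genes, 2 were higher and 4 lower with a median of -0.05, and without mixed-profile cells 0 and 1 of 21 were.

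Immediate early genes had few members past the mark here. Of 36 tested, 1 was higher and 3 lower in DJ-1 KO OVA, with a median log2 ratio of 0.17; without mixed-profile cells 4 of 34 were higher, 0 lower and the median was 0.31. Atf3, a stress-induced transcription factor, had a ratio of 0.254 (0.154 to 0.399), but 0.688 (0.351 to 1.27) without mixed-profile cells. Junb had 7142 CPM in DJ-1 KO OVA, against 4913 in WT OVA (ratio 1.45, 1.39 to 1.51). Of 13 heat shock genes, 4 were higher and 0 lower with a median of 0.38; without mixed-profile cells 2 of 11 were higher (Hspa5 and Hsph1) and the median was 0.23. Hspa5, the chaperone BiP of the endoplasmic reticulum, had 1079 CPM in DJ-1 KO OVA, against 626 in WT OVA (1.72, 1.54 to 1.92), and its ratios were 1.66 in CD8 T cells and 1.53 in B cells.

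Genes were also ranked by the bounds of their ratio. Of the 10 highest in DJ-1 KO OVA, 9 had most of their UMIs in mixed-profile cells, as did 0 of the 10 lowest; Saa3, an acute-phase protein, had 294 UMIs in DJ-1 KO OVA, against 0 in WT OVA, with 99.7% of them in 1 cell. Mmp12, a macrophage elastase, had 1 UMI in WT OVA and 499 in WT PBS, 99.8% of them in 1 cell. The exception in DJ-1 KO OVA was Camk2b, a calcium- and calmodulin-dependent kinase subunit. It had 73 UMIs in DJ-1 KO OVA, against 21 in WT OVA, or 143 and 16.7 CPM, a ratio of 8.53 (5.19 to 14.6), with 5.48% of its UMIs in the top cell. Its ratio was 6.12 in CD8 T cells, 0 in B cells and 3.87 in all other kept cells. No minimum of UMIs was set for these ratios, so those of CD8 T and B cells may rest on few UMIs. The ratio of 0 means that no Camk2b UMI was seen in B cells of DJ-1 KO OVA.

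Without mixed-profile cells the highest-ranked genes of DJ-1 KO OVA included the histone, chromosome and tubulin genes Hist1h2ap, Top2a, Smc2 and Tuba1b, and also Tulp4 and Dhrs3. The first 4 rested in part on single cells. The top cell of each gene in DJ-1 KO OVA held 34.7% of Hist1h2ap, 30.9% of Top2a, 13.8% of Smc2 and 23.5% of Tuba1b UMIs. After thinning the log2 ratio of Top2a was -0.54. Tulp4, a tubby-like protein, had 772 CPM in DJ-1 KO OVA, against 283 in WT OVA over all NK cells (ratio 2.73, 2.36 to 3.16), against ratios of 1.70 in CD8 T cells and 1.82 in B cells. Dhrs3, a retinaldehyde reductase, had 446 and 206 CPM (2.16, 1.8 to 2.59), against 0.694 in CD8 T cells and 1.97 in B cells. The lowest-ranked genes had mostly low ratios in other classes too. Tmsb10, thymosin beta 10, which binds actin monomers, had 2527 CPM in DJ-1 KO OVA, against 5139 in WT OVA (0.492, 0.463 to 0.522), with 0.634 in CD8 T cells and 0.592 in B cells. Xcl1 stood among these 10 as the chemokine with the lowest ratio.

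In WT OVA over WT PBS, most of the UMIs lay in mixed-profile cells for 1 of the 10 highest genes (Ager) and for 4 of the 10 lowest (Mmp12, Bpifa1, Sult1d1 and Scgb3a1). The other lowest genes were Birc5, Hist1h2ap, Mki67, Rrm2, Nusap1 and Kif11, all of dividing cells. They rested in part on single cells. The top cell of each gene in WT PBS held 20.3% of Birc5, 20.6% of Hist1h2ap and 26.5% of Mki67 UMIs. It held 28.1% of Rrm2, 19.6% of Nusap1 and 19.0% of Kif11 UMIs. The other highest genes included Dusp1, Zfp36, Snhg9, a small nucleolar RNA host gene, and Hist1h1c, a linker histone. Zfp36 did not stay past 2-fold: its log2 ratio of 1.17 was 0.87 without mixed-profile cells. Snhg9 had 125 CPM in WT OVA and 43.1 in WT PBS (ratio 2.9, 2.24 to 3.77), with ratios of 2.79 in CD8 T cells and 2.62 in B cells. Hist1h1c had 172 and 68.0 CPM (2.53, 2.05 to 3.13), with 1.46 and 1.88. Histone and ribosomal protein genes have near-identical copies elsewhere in the genome, which makes their counts uncertain.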

How the data were processed

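Whole-lung cells were profiled, per the labels' protocols, with Chromium 3′ chemistry, version 3. Cell Ranger, STAR and the mm10 build are named in the submitters' processing notes, and the file headers give software version 3.1.0. The authors deposited 1 filtered matrix of raw UMI counts per library, with 27998 genes under 27933 symbols; no barcode held under 500 UMIs. The annotation, the intron setting and any doublet removal are not given in the sources used here.

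Cells under 200 genes or over 20% mitochondrial UMIs were left out: 160 cells in DJ-1 KO OVA, 314 in WT OVA and 342 in WT PBS. Of 372 barcodes shared by WT PBS and DJ-1 KO OVA the cell with fewer UMIs was removed (65 of DJ-1 KO OVA, 306 of WT PBS; 1 more, of DJ-1 KO OVA, had failed the filters). Kept cells had a median of 1653 UMIs in DJ-1 KO OVA, 2108.5 in WT OVA and 4128 in WT PBS. Doublets were not removed; Scrublet (scanpy 1.11.5) served as an alternative.

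UMIs were summed over the NK cells of a library and scaled to CPM, with exact Poisson intervals for levels, exact conditional binomial intervals for ratios and Clopper-Pearson intervals for shares, all at 95%. With 1 library per group no test was run. Genes needed 50 UMIs over 2 libraries; a call was past 2-fold, and for list members past 1.5-fold. Comparisons with other classes used genes with 150 NK UMIs over 3 libraries and set a class below 3 counts to 3; the classes, CD8 T cells, ILC2 and B cells, were gated by their own markers. Of 586 list genes 579 were found, 4 through synonyms. Depth-matched shares used cells thinned to 1000 UMIs, leaving out 11 DJ-1 KO OVA, 18 WT OVA and 9 WT PBS NK cells.

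Named genes were those of the rule, members of the lists by role, and per comparison the 10 genes with the highest lower bound and the 10 with the lowest upper bound of their ratio past 2-fold, leaving out mitochondrial, ribosomal, haemoglobin and immunoglobulin genes, unnamed models and genes below 0.5 of their level in other cells. The members and lists were chosen with earlier results of these data known. Ubxn11, Rpl11 and the mixed-profile cells were chosen after their values were seen. Gene positions come from RefSeq, GRCm38.p6. Some genes of the rule are not reported here. The ratio code was tested on simulated data. Python 3.11.15, numpy 2.4.6, scipy 1.17.1 and pandas 2.3.3 were used.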

Additional observations from a re-analysis of the deposited data

How the results depend on the processing

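No paired analysis was possible because each group is 1 library, and for the same reason no replicate could be left out. The NK share moved with the marker minimum (at least 1 marker UMI, 9.65% in WT OVA; at least 3, 4.84% in DJ-1 KO OVA, against 7.78% in WT OVA), with thinning to 1000 UMIs (6.97% in WT OVA and 6.97% in WT PBS) and without Rag1 or Dntt cells (6.93% in DJ-1 KO OVA; with thinning too, 6.29% in DJ-1 KO OVA, 6.99% in WT OVA and 7.05% in WT PBS). The counts of genes past 2-fold, 310 in WT OVA over WT PBS and 200 in DJ-1 KO OVA over WT OVA, were counted anew over the genes each setting tests: 82 and 75 after thinning, 82 and 74 after thinning without Rag1 or Dntt cells, 827 and 681 at 20 UMIs, 118 and 84 at 100 UMIs, and 173 and 111 without mixed-profile cells; the other settings kept these counts within 1.5 times. Thinning turned the log2 ratio of Top2a to 0.12 in WT OVA over WT PBS and to -0.54 in DJ-1 KO OVA over WT OVA, and that of Atf3 to 0.048 in DJ-1 KO OVA over WT OVA; it leaves few UMIs of such genes. Over all alternatives, 1523 values of single genes stayed within the counting interval of the reported value, 124 moved out of it and 3 that were past 2-fold turned sign. Counting values of any size, 47 changed sign. Of the list medians, 414 stayed and 2 moved: the Ly49 family to 0.07 without mixed-profile cells, and homing receptors to 0.38 after thinning, both in WT OVA over WT PBS. Among these 416 list medians, of any size, 39 changed sign. Without both cells of shared barcodes the genes past 2-fold lower in DJ-1 KO OVA were 185 of 263 in all, against 117 of 200. Scrublet called 3 cells in DJ-1 KO OVA, 162 in WT OVA and 58 in WT PBS, too few in DJ-1 KO OVA to have worked there. Depth limits low genes most in DJ-1 KO OVA, where 1 NK cell holds a median of 1603 UMIs.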

Other observations

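Several genes on chromosome 4, where Park7 lies, were past 2-fold in NK cells of DJ-1 KO OVA over WT OVA. Of 292 chromosome 4 genes tested, 12 were at least 2-fold lower in DJ-1 KO OVA (4.11%), against 2.32% of all genes. Chromosomes 13, 8, 14 and 16 had close shares, 3.89%, 3.81%, 3.77% and 3.50%. Leaving out genes below 0.5 of their level in other cells, 7 lower genes were on chromosome 4 and 8 on chromosome 8. Hdac1, a histone deacetylase, had 29.3 CPM in DJ-1 KO OVA, against 97.2 in WT OVA, a ratio of 0.302 (0.164 to 0.518), and ratios of 0.393 in CD8 T cells and 0.2 in B cells. Rpl11, a ribosomal protein gene, had a ratio of 0.448, and 0.513 and 0.427 in the other classes. Ubxn11, a UBX-domain protein gene, went the opposite way, with 93.8 CPM in DJ-1 KO OVA, against 35 in WT OVA (2.68, 1.74 to 4.13), and 3.50 in CD8 T cells and 1.91 in B cells.

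Interferon-stimulated genes showed no common shift in NK cells: of 27 tested in WT OVA over WT PBS, 1 was higher and 2 lower past 1.5-fold, and of 19 in DJ-1 KO OVA over WT OVA, 2 were higher and 1 lower. Without mixed-profile cells the counts were 0 higher and 1 lower of 24, and 1 higher and 1 lower of 18. Psmb8, an immunoproteasome subunit, had 121 CPM in DJ-1 KO OVA, against 204 in WT OVA (ratio 0.594, 0.443 to 0.787).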
